A study of Mus musculus with 12 samples.

Results

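The collagen genes were taken as every probe set whose single gene symbol in the platform annotation has the form of a collagen chain (Col, a number, the letter a and a second number), with the brightest probe set standing for each gene. This gave 36 genes from 58 probe sets, of 12394 singly named genes and 22690 probe sets on the array. By the kind of assembly their chains form, 9 are fibrillar, 8 belong to basement membrane and 19 to other types. The signal is a fluorescence intensity on a linear scale, and levels of different genes are not set against each other, because each probe set hybridises with its own efficiency. Of the 36 genes, 21 lay above the intensity filter used for testing (8 fibrillar, 4 of basement membrane and 9 others) and 15 lay below it.

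The samples were spinal cords of 13-day-old mice of line 4299, which models a severe form of spinal muscular atrophy (SMA). In that disease lack of the protein SMN leads to the death of motor neurons. All mice carried the transgenes Tg(SMN2*delta7)4299Ahmb and Tg(SMN2)89Ahmb on an FVB background, written SMN2+/+;SmnΔ7+/+ in the labels, and the targeted allele Smn1tm1Msd. SMA ceftriaxone mice (mSmn -/-) received 200 mg/kg of the beta-lactam antibiotic ceftriaxone daily by intraperitoneal injection from day 5, SMA vehicle mice (mSmn -/-) received vehicle, and wildtype mice (mSmn+/−, with a single mouse Smn allele) received vehicle. Each group had 4 mice and 4 arrays. The labels mention both the whole cord and the lumbar segments L1–L5 without settling which was hybridised. The mice had been perfused with fixative, and the labels do not give their sex.

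Collagens are triple-helical proteins of the extracellular matrix. Fibrillar collagens form the tensile fibres of meninges, nerve sheaths and vessel walls, type IV collagens form the sheet on which endothelium and glial endfeet rest, and the FACIT collagens, those with interrupted helices, coat the surface of fibrils. The parenchyma of the cord holds little fibrillar collagen, which lies mainly in its meninges and larger vessels, whereas basement membrane surrounds every capillary. In whole tissue, fewer cells of a type and less RNA per cell cannot be told apart.

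The start regions of 5 collagen genes are shown because their results turn on pairs of chains. Col4a1 and Col4a2 encode the 2 chains of the common type IV trimer and are read in opposite directions. Col11a1 and Col11a2 encode chains of 1 fibrillar trimer and differed in direction in these cords, and Col9a1 encodes 1 of the type IX chains that were lower in SMA vehicle cords. Each sequence runs 5′ to 3′ on the strand of its gene, from 250 bases before to 50 after the annotated start, in the GRCm38.p6 build, from RefSeq. Col9a1 has 2 annotated starts. Capitals mark the GC box (GGGCGG), the CCAAT box (CCAAT) and the TATA box (TATAAA), each searched on both strands.
Col4a1, chr8:11312777-11313076, minus strand: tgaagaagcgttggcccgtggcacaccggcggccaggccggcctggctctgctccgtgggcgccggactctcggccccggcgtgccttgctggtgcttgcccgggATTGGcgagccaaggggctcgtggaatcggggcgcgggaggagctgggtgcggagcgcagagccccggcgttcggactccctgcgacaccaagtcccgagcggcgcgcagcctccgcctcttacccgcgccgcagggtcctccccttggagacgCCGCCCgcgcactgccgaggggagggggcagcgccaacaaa
Col4a2, chr8:11312555-11312854, plus strand: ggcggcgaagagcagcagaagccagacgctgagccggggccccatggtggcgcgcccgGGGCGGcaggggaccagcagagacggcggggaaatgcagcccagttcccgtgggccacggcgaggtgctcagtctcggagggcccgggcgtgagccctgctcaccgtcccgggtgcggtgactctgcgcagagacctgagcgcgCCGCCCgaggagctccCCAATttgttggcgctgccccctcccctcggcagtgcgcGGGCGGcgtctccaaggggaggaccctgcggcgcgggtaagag
Col9a1 upstream window, chr1:24177360-24177659, plus strand: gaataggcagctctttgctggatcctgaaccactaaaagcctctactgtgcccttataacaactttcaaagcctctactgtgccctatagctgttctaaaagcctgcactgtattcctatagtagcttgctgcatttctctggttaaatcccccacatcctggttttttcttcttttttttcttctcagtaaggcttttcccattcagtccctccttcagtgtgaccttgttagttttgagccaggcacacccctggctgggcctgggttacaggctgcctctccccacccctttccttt
Col9a1 downstream window, chr1:24194953-24195252, plus strand: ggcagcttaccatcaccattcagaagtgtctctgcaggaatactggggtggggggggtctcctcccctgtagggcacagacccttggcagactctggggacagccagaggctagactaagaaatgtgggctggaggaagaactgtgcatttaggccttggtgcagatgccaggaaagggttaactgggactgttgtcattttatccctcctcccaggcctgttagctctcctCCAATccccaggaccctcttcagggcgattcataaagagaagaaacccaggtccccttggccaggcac
Col11a1, chr3:114030290-114030589, plus strand: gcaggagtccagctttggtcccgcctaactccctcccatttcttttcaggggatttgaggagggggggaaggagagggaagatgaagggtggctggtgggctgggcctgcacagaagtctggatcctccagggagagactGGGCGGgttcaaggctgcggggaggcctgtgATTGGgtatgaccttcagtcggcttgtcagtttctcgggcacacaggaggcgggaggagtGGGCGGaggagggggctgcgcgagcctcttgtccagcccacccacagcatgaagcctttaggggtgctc
Col11a2, chr17:34038888-34039187, plus strand: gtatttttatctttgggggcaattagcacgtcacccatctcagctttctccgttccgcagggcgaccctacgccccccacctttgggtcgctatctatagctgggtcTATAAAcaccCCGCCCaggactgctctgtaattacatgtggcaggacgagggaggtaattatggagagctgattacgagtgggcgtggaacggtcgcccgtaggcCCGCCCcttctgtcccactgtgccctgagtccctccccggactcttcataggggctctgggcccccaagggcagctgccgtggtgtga
The annotated starts of Col4a1 and Col4a2 lie 21 bases apart, and their windows share 78 bases on opposite strands. The Col4a1 window holds 1 GC box and 1 CCAAT box, and the Col4a2 window holds 3 GC boxes and 1 CCAAT box. The Col11a1 window holds 2 GC boxes and 1 CCAAT box, whereas the Col11a2 window holds 2 GC boxes and 1 TATA box. The upstream Col9a1 window holds none of the 3 motifs and the downstream one holds 1 CCAAT box. No letters were shared between motifs. Among all 32817 windows of the same length, 35.6% hold a GC box, 37.4% a CCAAT box and 13.6% a TATA box. These matches are descriptions of letters and not of binding. Of the 36 collagen genes, 27 have a window in this table. Col4a5 and Col4a6, another head-to-head pair of type IV genes, start 1343 bases apart on chromosome X.

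Smn1, the targeted gene, separated the genotypes. Its signals were 15.8, 3.3, 6.4 and 3.6 in SMA ceftriaxone cords and 3.6, 3.7, 3.9 and 5.7 in SMA vehicle cords, against 305.7, 414.3, 263.4 and 268.6 in wildtype cords. Xist, the RNA of the inactive X chromosome, was above 1000 on all 4 SMA ceftriaxone arrays, on SMA vehicle arrays 1 and 4 and on wildtype array 3, and at most 74.2 on the other 5 arrays. Wildtype array 2 carried genes of developing T cells, with Rag1 at 7862.5 and Cd3d at 5575.8. The 10 measured genes of the skeletal muscle list summed to 333 to 913.9 in SMA ceftriaxone cords, to 2884.2 to 6726 in SMA vehicle cords and to 716 to 1937.5 in wildtype cords. Spinal cord identity was present throughout, with the 10 neuron and glia markers summing to 43862.2 to 50841.3 in SMA ceftriaxone cords, 36111.8 to 40077.3 in SMA vehicle cords and 35229 to 55815.3 in wildtype cords.

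In SMA vehicle cords against wildtype cords, collagen genes moved in both directions, with no common direction for the family. Col26a1, Col14a1, Col11a1 and Col6a1 rose, Col9a1, Col9a3 and Col11a2 fell, and 14 of the 21 tested genes did not pass the test. Each test is limma's moderated two-sided test on log2(signal + 16), with Benjamini-Hochberg adjustment over all 13575 probe sets tested and a threshold of 0.05. Over all of those probe sets, 24.9% rose and 22.3% fell, or 47.2% in either direction, so a share of 7 in 21 collagen genes did not stand above the background. The median log2 difference was 0.21 over the 21 collagen genes and 0.01 over all probe sets tested. By class, 1 of 8 fibrillar genes rose and 1 fell, 3 of 9 other genes rose and 2 fell, and 0 of 4 basement membrane genes passed, of which 1 was higher at an unadjusted limma p below 0.05. Leaving out SMA vehicle array 1 or 4 left 2 genes higher, and leaving out wildtype array 2 gave 6. Without SMA vehicle array 1 or 4, Col6a1 lost its call, while Col11a1 fell below the intensity filter and was not tested. Without SMA vehicle array 1, SMA vehicle array 4 and wildtype array 2, 5963, 5502 and 7937 of all 13575 probe sets passed in either direction, against 6401 with every array.

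In SMA ceftriaxone cords against SMA vehicle cords, Col26a1, Col14a1, Col11a1 and Col1a1 fell and Col9a1, Col9a3, Col11a2 and Col5a3 rose, again with no single direction. Over all probe sets tested, 18.3% rose and 17.7% fell, or 35.9% in either direction, against 8 of 21 collagen genes. The median log2 difference was -0.17 over the collagen genes and -0.01 over all. Among fibrillar genes 2 of 8 rose and 2 fell, among other genes 2 of 9 rose and 2 fell, and 0 of 4 basement membrane genes passed, with 0 at an unadjusted limma p below 0.05 as well. The split of 4 higher and 4 lower became 2 higher and 5 lower after quantile normalization and after median centring. Over all 13575 probe sets, 4706 and 4419 passed after these scalings, against 4879 in the main fit. Without wildtype array 2 there were 6 genes lower, and there were 2 higher without SMA ceftriaxone array 4 and without SMA vehicle array 2, 3 or 4. Of all probe sets 6808 passed without wildtype array 2, and 3729 to 4283 without the other arrays named.

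In SMA ceftriaxone cords against wildtype cords, 0 of 21 collagen genes passed limma's test, with 2 higher and 1 lower at an unadjusted p below 0.05. Over all probe sets, 3.29% rose and 0.928% fell, or 4.21% in either direction. The median log2 difference was 0.03 over the collagen genes and 0.01 over all. With array quality weights 1 gene passed, Col26a1, at a log2 difference of 0.54 (limma adjusted p = 0.0394). In that fit 1826 of 13575 probe sets passed, against 572 in the main fit, so 1 of 21 did not stand above the background. Both comparisons above use the same SMA vehicle arrays, so a deviation of those 4 arrays enters both with opposite signs, and the 2 sets of values are given side by side only.

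**Figure D1:**
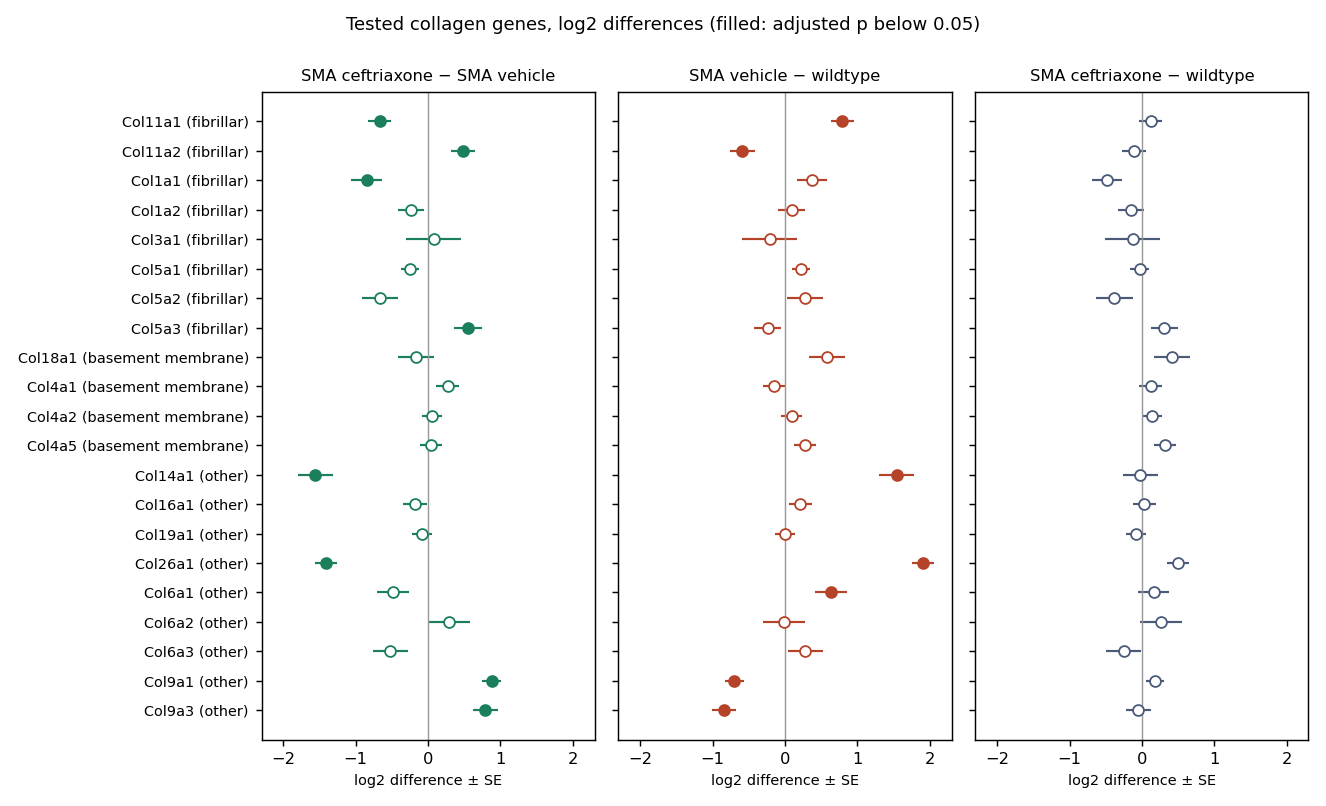
Differences in log2(signal + 16) of the 21 tested collagen genes in the 3 comparisons, with 1 point per gene and bars of 1 standard error. Filled points passed limma's test, and in the panel of SMA ceftriaxone against wildtype 0 of 21 are filled.

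Col26a1 encodes type XXVI collagen, which joins short collagenous stretches to an EMI domain. Its signals were 192.5, 156.8, 260.3 and 141.8 in SMA ceftriaxone cords, 531.9, 471, 533 and 516.2 in SMA vehicle cords, and 122.6, 121.1, 134.1 and 121.4 in wildtype cords. Every SMA vehicle array lay above every array of both other groups, and every SMA ceftriaxone array lay above every wildtype array. The log2 difference of SMA vehicle from wildtype was 1.91 ± 0.15 (SE, n = 4 and 4, limma adjusted p = 1.34e-06), and that of SMA ceftriaxone from SMA vehicle was -1.41 ± 0.15 (limma adjusted p = 5.27e-05). SMA ceftriaxone exceeded wildtype by 0.50 ± 0.15, which did not pass (limma adjusted p = 0.0814).

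Col14a1 encodes a FACIT collagen that binds the surface of type I fibrils. It measured 195.5, 112.5, 181.6 and 90.8 in SMA ceftriaxone cords, 547, 306.4, 377.5 and 591.7 in SMA vehicle cords, and 124.1, 169, 150.2 and 123.9 in wildtype cords. The SMA vehicle arrays again stood above all others, while the remaining groups overlapped. SMA vehicle differed from wildtype by 1.54 ± 0.24 on the log2 scale (limma adjusted p = 0.000201) and SMA ceftriaxone from SMA vehicle by -1.56 ± 0.24 (limma adjusted p = 0.000404). A second Col14a1 probe set passed in the same directions, with differences of 1.29 and -1.20.

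Col11a1 encodes a fibrillar chain that sits inside mixed fibrils and helps set their diameter. Its signals were 153.4, 92.6, 112.8 and 88.1 in SMA ceftriaxone cords, 181.3, 164.9, 175 and 215.8 in SMA vehicle cords, and 97, 87.1, 103.8 and 109.6 in wildtype cords. No SMA vehicle array overlapped with another group. The log2 differences were 0.79 ± 0.16 for SMA vehicle from wildtype (limma adjusted p = 0.00132) and -0.67 ± 0.16 for SMA ceftriaxone from SMA vehicle (limma adjusted p = 0.00614). Col11a1 lay just inside the intensity filter, with a mean log2 value of 7.15 against a lowest kept value of 7.14, so under some alternatives it was not tested.

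Col6a1 encodes a chain of type VI collagen, whose beaded filaments surround muscle fibres, nerves and vessels. It measured 143.6, 214.9, 244.2 and 181.9 in SMA ceftriaxone cords, 309.2, 243.7, 214 and 357 in SMA vehicle cords, and 131.8, 217.3, 234.3 and 125.8 in wildtype cords. The groups overlapped through SMA vehicle array 3 and wildtype arrays 2 and 3. The log2 difference of SMA vehicle from wildtype was 0.64 ± 0.22 (limma adjusted p = 0.0312), and it did not pass without wildtype array 1 (0.0896) or 4 (0.0954) or without SMA vehicle array 1 (0.0745) or 4 (0.099). SMA ceftriaxone differed from SMA vehicle by -0.48, which did not pass (limma adjusted p = 0.111). Col6a2, another type VI chain, measured 690.6 on SMA ceftriaxone array 3 and 212.2 to 396.6 on the other 11 arrays. On a second Col6a2 probe set that array measured 325.5, inside the range of 216.1 to 385.8 of the other arrays. Col6a3 averaged 147 ± 28.1, 221 ± 64.9 and 183 ± 74.7 (SD, n = 4 each) in SMA ceftriaxone, SMA vehicle and wildtype cords. Col6a2 and Col6a3 gave -0.02 and 0.28 for SMA vehicle from wildtype and passed in neither comparison. Without wildtype array 2, Col6a3 passed in both, at 0.51 (0.0346) and -0.52 (0.0263).

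Col9a1 and Col9a3 encode chains of type IX collagen, a FACIT collagen whose trimer joins the products of Col9a1, Col9a2 and Col9a3 on fibril surfaces. Col9a1 signals were 293.7, 337.6, 325.9 and 273.8 in SMA ceftriaxone cords, 189.7, 173.9, 125.8 and 154.8 in SMA vehicle cords, and 278.1, 234.4, 300.4 and 270.5 in wildtype cords. All SMA vehicle arrays lay below all others. The log2 differences were -0.70 ± 0.13 for SMA vehicle from wildtype (limma adjusted p = 0.000647) and 0.88 ± 0.13 for SMA ceftriaxone from SMA vehicle (limma adjusted p = 0.00028). The second Col9a1 probe set gave -0.46, which did not pass, and 0.60, which did.

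Col9a3 measured 1034, 1016.1, 965.6 and 894.9 in SMA ceftriaxone cords, 668.7, 642.3, 502.1 and 451 in SMA vehicle cords, and 1234.6, 688.9, 1230.3 and 993.4 in wildtype cords. Wildtype array 2, the array with T cell genes, was the lowest of its group and still above every SMA vehicle array. SMA vehicle differed from wildtype by -0.84 ± 0.17 (limma adjusted p = 0.00147) and SMA ceftriaxone from SMA vehicle by 0.79 ± 0.17 (limma adjusted p = 0.00355). Another Col9a3 probe set passed in the same directions, at -1.60 and 1.27. The third chain of the trimer did not share this pattern. Col9a2, below the filter, averaged 108.0 ± 12.3, 112 ± 14.4 and 75.2 ± 18.5 (SD, n = 4 each) in SMA ceftriaxone, SMA vehicle and wildtype cords.

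Col11a2 encodes another chain of type XI collagen. It measured 352.5, 222.9, 233.4 and 249 in SMA ceftriaxone cords, 218.8, 191.4, 162.1 and 163.1 in SMA vehicle cords, and 283, 213.7, 333.6 and 316.3 in wildtype cords. SMA ceftriaxone and SMA vehicle arrays did not overlap, and wildtype array 2 lay below SMA vehicle array 1. The log2 differences were -0.59 ± 0.17 for SMA vehicle from wildtype (limma adjusted p = 0.011) and 0.48 ± 0.17 for SMA ceftriaxone from SMA vehicle (limma adjusted p = 0.0414). The second of these was lost in 13 of 26 alternatives, among them leaving out SMA ceftriaxone array 1 (0.119) or 4 (0.0674), SMA vehicle array 2 (0.064), 3 (0.111) or 4 (0.108), or wildtype array 1 (0.0526). Col11a1 and Col11a2, whose start regions are printed above, therefore passed in opposite directions in SMA vehicle cords.

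Col1a1 and Col1a2 encode the chains of type I collagen, the main fibril of skin, bone and meninges. Col1a1 measured 314.7, 383.2, 475.3 and 369.1 in SMA ceftriaxone cords, 992.2, 469.9, 653.4 and 794.1 in SMA vehicle cords, and 517.2, 626.4, 635.9 and 412.7 in wildtype cords. SMA ceftriaxone array 3 lay just above SMA vehicle array 2, and the other arrays of these groups were apart. The log2 difference of SMA ceftriaxone from SMA vehicle was -0.85 ± 0.21 (limma adjusted p = 0.0062). That of SMA vehicle from wildtype was 0.37 ± 0.21 (limma adjusted p = 0.161), and it passed at 0.56 without SMA vehicle array 2 (0.0279). A second Col1a1 probe set was also lower in SMA ceftriaxone cords, by a log2 difference of -0.61.

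Col1a2 measured 1658.1, 1743.3, 1957.5 and 1822.4 in SMA ceftriaxone cords, 2916.9, 1567.2, 1609.5 and 2739.7 in SMA vehicle cords, and 1751, 2023.4, 2329.1 and 1890.5 in wildtype cords. Its log2 differences of 0.09 for SMA vehicle from wildtype and -0.24 for SMA ceftriaxone from SMA vehicle did not pass. Col3a1, the type III chain that joins type I in extensible tissue, measured 1368.3, 1539.6, 2180.3 and 1604.9 in SMA ceftriaxone cords, 3061.3, 672.7, 1163 and 2466 in SMA vehicle cords, and 1304.9, 2497.7, 2156.8 and 1512.1 in wildtype cords. Its differences were -0.21 and 0.08 in the same order. Both genes held the highest and the lowest arrays of the study within the SMA vehicle group, so the spread inside that group exceeded the difference between groups.

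Type V chains start and regulate the fibrils of type I. Col5a3 measured 121.4, 182.8, 217 and 234.1 in SMA ceftriaxone cords, 151.5, 117, 94.8 and 122.7 in SMA vehicle cords, and 133.4, 137.7, 150 and 158.6 in wildtype cords. SMA ceftriaxone array 1 lay among the SMA vehicle arrays and the other 3 above them. The log2 difference of SMA ceftriaxone from SMA vehicle was 0.55 ± 0.19 (limma adjusted p = 0.0325). It did not pass in 13 of 25 alternatives, among them leaving out SMA vehicle array 2 (0.0657), 3 (0.102) or 4 (0.0633), leaving out SMA ceftriaxone array 2 (0.0666), 3 (0.091) or 4 (0.102), and the replicate number as a block (0.0543). Col5a2 averaged 233 ± 42.5, 396 ± 158 and 309 ± 72.6 (SD, n = 4 each) in SMA ceftriaxone, SMA vehicle and wildtype cords, and its log2 difference of -0.66 from SMA vehicle did not pass (limma adjusted p = 0.0595). That difference passed without SMA vehicle array 2 (-0.90, limma adjusted p = 0.00853) and without wildtype array 2 (0.0361). The probe sets of Col5a1 disagreed: the brightest gave 0.22 and -0.25 and did not pass, and a second one passed at 0.65 for SMA vehicle from wildtype and -0.73 for SMA ceftriaxone from SMA vehicle.

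**Figure D2:**
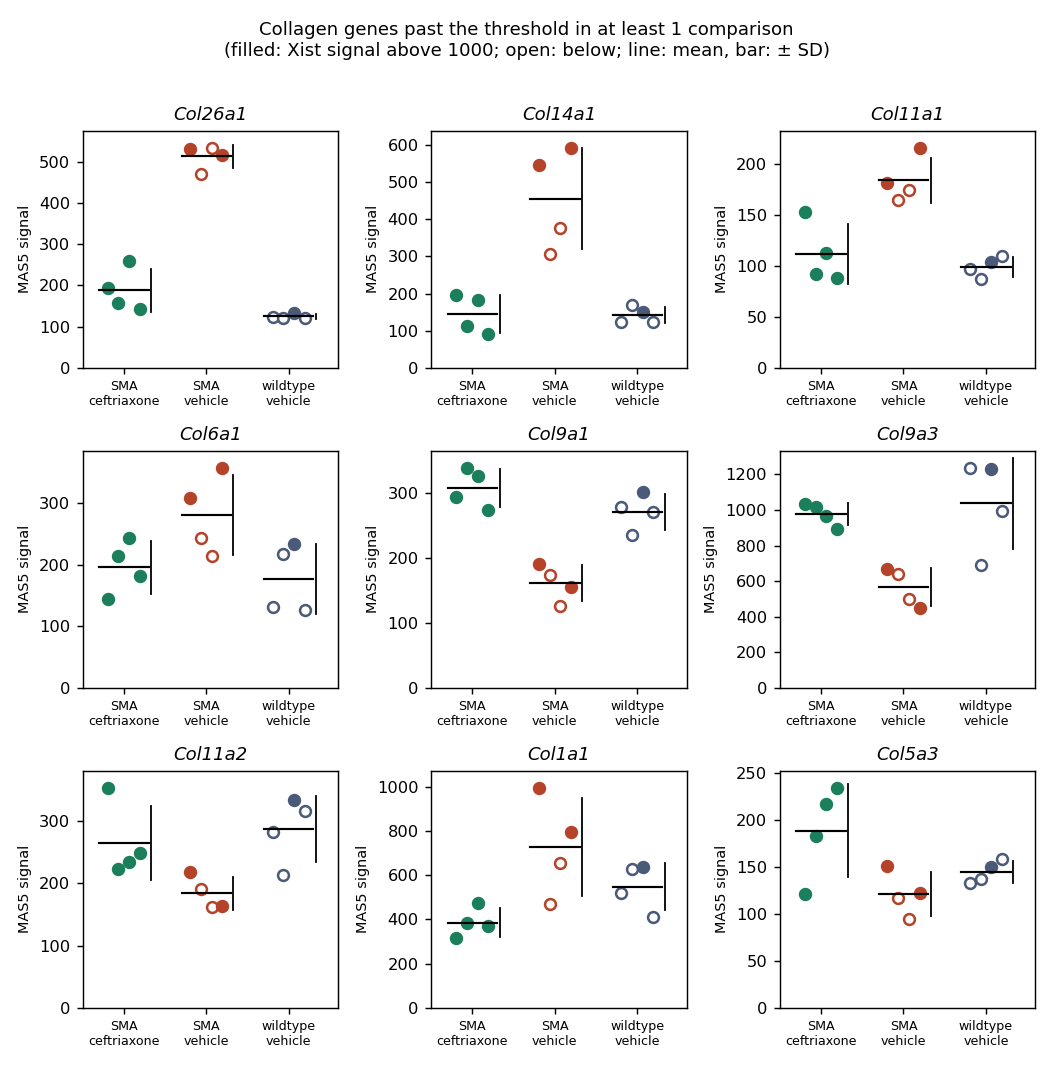
Signal on a linear scale, by array, of the 9 collagen genes that passed in at least 1 comparison, with SMA ceftriaxone, SMA vehicle and wildtype from left to right. Filled points are arrays with Xist above 1000, lines are group means and bars are 1 SD; Col26a1, Col14a1 and Col11a1 are highest and Col9a1 and Col9a3 lowest on the SMA vehicle arrays.

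Among basement membrane genes no brightest probe set passed. Col4a1 measured 1434.7, 1232.3, 1823.1 and 1201.3 in SMA ceftriaxone cords, 1508.6, 954.1, 969.2 and 1294.5 in SMA vehicle cords, and 1384.6, 1425.3, 1276.9 and 1106.2 in wildtype cords. Col4a2, which shares its start region, measured 837.5, 787.3, 914.1 and 741.3 in SMA ceftriaxone cords, 1057.5, 644.7, 689.2 and 824 in SMA vehicle cords, and 853.9, 727.2, 732.1 and 665.4 in wildtype cords. For both genes all 3 groups overlapped, and SMA vehicle array 1 was the highest and array 2 the lowest of its group. Log2 differences of SMA vehicle from wildtype were -0.15 ± 0.16 for Col4a1 and 0.09 ± 0.14 for Col4a2, and those of SMA ceftriaxone from SMA vehicle were 0.27 ± 0.16 and 0.05 ± 0.14. A second Col4a1 probe set was lower in SMA vehicle than in wildtype cords, by a log2 difference of -0.52 that passed.

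Col4a5, a chain of the type IV trimers of kidney and smooth muscle, averaged 359 ± 47.6, 352 ± 73.9 and 282 ± 24.0 in SMA ceftriaxone, SMA vehicle and wildtype cords (SD, n = 4 each). Its log2 difference of 0.28 for SMA vehicle from wildtype did not pass (limma adjusted p = 0.125), and it passed at 0.40 without SMA vehicle array 3 (0.035). Col18a1, the source of the fragment endostatin, averaged 225 ± 51.1, 263 ± 98.1 and 167 ± 49.8. Its difference of 0.58 from wildtype in SMA vehicle cords missed the threshold (limma adjusted p = 0.0764) and passed without wildtype array 2 (0.75, limma adjusted p = 0.0161), SMA vehicle array 2 (0.0413) or SMA vehicle array 3 (0.043). A second Col18a1 probe set gave -0.08 (limma adjusted p = 0.821). Col16a1 and Col19a1, both FACIT collagens, gave log2 differences of 0.21 and 0.00 for SMA vehicle from wildtype and did not pass in any comparison. Without SMA ceftriaxone array 1, Col16a1 was lower in SMA ceftriaxone than in SMA vehicle cords, at -0.35 (0.041). All SMA vehicle arrays of Col16a1, at 264.8 to 304.4, lay above all wildtype arrays, at 225.4 to 262.1.

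Counted by arrays alone, 4 tested collagen genes had every SMA vehicle array above every wildtype array and 2 had every one below. Over all probe sets these shares were 22.9% and 19.6%, or 42.5% in either direction. SMA ceftriaxone arrays lay wholly above SMA vehicle arrays for 3 genes and wholly below for 3, against 22% and 23.3% of all probe sets, or 45.3% together. They lay wholly above wildtype arrays for 1 gene and wholly below for 0, against 7.68% and 3.92%, or 11.6% together.

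The 15 genes below the filter were Col2a1 (fibrillar), Col4a3, Col4a4, Col4a6 and Col15a1 (basement membrane), and Col7a1, Col8a1, Col9a2, Col10a1, Col12a1, Col13a1, Col17a1, Col20a1, Col22a1 and Col25a1. They are given as signals with no call, and how often dim probe sets did not overlap between groups was not counted. Col15a1, which links basement membrane to fibrils, measured 97.6, 109.8, 111.7 and 98.3 in SMA ceftriaxone cords, 119.3, 44.8, 79.2 and 49 in SMA vehicle cords, and 150.3, 269, 177.9 and 158.1 in wildtype cords. Arrays of both SMA groups lay below every wildtype array. Col20a1, a FACIT collagen, measured 71, 107.4, 68.8 and 99 in SMA ceftriaxone cords, 38.9, 40, 13 and 32.5 in SMA vehicle cords, and 88.3, 61, 105 and 119.6 in wildtype cords. Its SMA vehicle arrays were below all others, as were those of Col9a1 and Col9a3. On a dimmer Col20a1 probe set SMA vehicle arrays (3.6 to 7.1) overlapped with SMA ceftriaxone arrays (4.7 to 12.7), and on another they lay below all others. Col8a1, a network collagen of vessel walls and the cornea, measured 99.4, 136.7, 99.4 and 124.1 in SMA ceftriaxone cords, 145.1, 179.2, 144.4 and 113.9 in SMA vehicle cords, and 84.4, 73.8, 82 and 88.3 in wildtype cords. Arrays of both SMA groups lay above every wildtype array. A dimmer second probe set overlapped, at 9.5 to 22.6, 22.5 to 35.2 and 2.2 to 25.7 in SMA ceftriaxone, SMA vehicle and wildtype cords.

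Among the dim type IV chains, Col4a3 measured 43, 27.9, 23.3 and 59.6 in SMA ceftriaxone cords, 25.2, 21.9, 22.5 and 3 in SMA vehicle cords, and 44.1, 40.2, 51.8 and 41.2 in wildtype cords. All SMA vehicle arrays lay below all wildtype arrays. Col4a6 ran the other way, with 33.9, 75, 74 and 45.7 in SMA ceftriaxone cords, 67.3, 43.2, 54 and 86.5 in SMA vehicle cords, and 19.9, 30.9, 29.7 and 10.9 in wildtype cords. Arrays of both SMA groups lay above every wildtype array. On a dimmer second Col4a6 probe set SMA vehicle arrays (12.4 to 47.6) lay above wildtype arrays (7.9 to 11.3). SMA ceftriaxone arrays (5.5 to 22.9) overlapped with the wildtype ones there. Col4a4 had signals of at most 23.2 on any array. Col2a1, the fibrillar chain of cartilage, measured 32.4, 44.7, 29.4 and 19.1 in SMA ceftriaxone cords, 74.7, 60.4, 71.1 and 77.3 in SMA vehicle cords, and 47.1, 30.6, 69.7 and 87.3 in wildtype cords. The SMA vehicle arrays lay above the SMA ceftriaxone arrays and among the wildtype ones.

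The transmembrane collagen Col25a1, which binds amyloid beta and is needed for motor axons to enter muscle in mice, measured 51.4, 46.6, 40 and 44.2 in SMA ceftriaxone cords, 99.2, 60.7, 75.8 and 78.5 in SMA vehicle cords, and 37.6, 21.5, 72.4 and 44.4 in wildtype cords. SMA vehicle arrays lay above all SMA ceftriaxone arrays, and wildtype array 3 lay among them. Col12a1, a FACIT collagen, averaged 49.1 ± 31.5, 65.2 ± 18.0 and 77.8 ± 12.2 (SD, n = 4 each) in SMA ceftriaxone, SMA vehicle and wildtype cords, and Col7a1, the anchoring fibril of skin, averaged 51.5 ± 10.7, 56.1 ± 9.05 and 63.5 ± 10.8. The highest signals of the remaining dim genes on any array were 58 for Col13a1, 51.9 for Col22a1, 20.8 for Col17a1 and 11.6 for Col10a1.

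The SMA vehicle arrays fell into pairs by Xist signal, and many collagen genes divided with them. For 15 of the 21 tested genes both arrays of high Xist signal (1 and 4) lay above both of low Xist signal (2 and 3), and for 0 genes below. Over all probe sets, 17.1% had both above and 11.9% had both below. The 15 were 7 of 8 fibrillar genes (Col11a2 apart), all 4 tested basement membrane genes, and Col14a1, Col6a1, Col6a2 and Col6a3 among the others. Col26a1, Col9a1, Col9a3, Col11a2, Col16a1 and Col19a1 did not divide in this way. The division rests on 2 against 2 arrays of 1 group. Wildtype array 3, the only wildtype array of high Xist signal, was highest of its group for Col1a1, Col1a2 and Col6a1. For the rest of the 15 it was not the highest, and for Col5a1 it was the lowest, at 181.9.

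**Figure D3:**
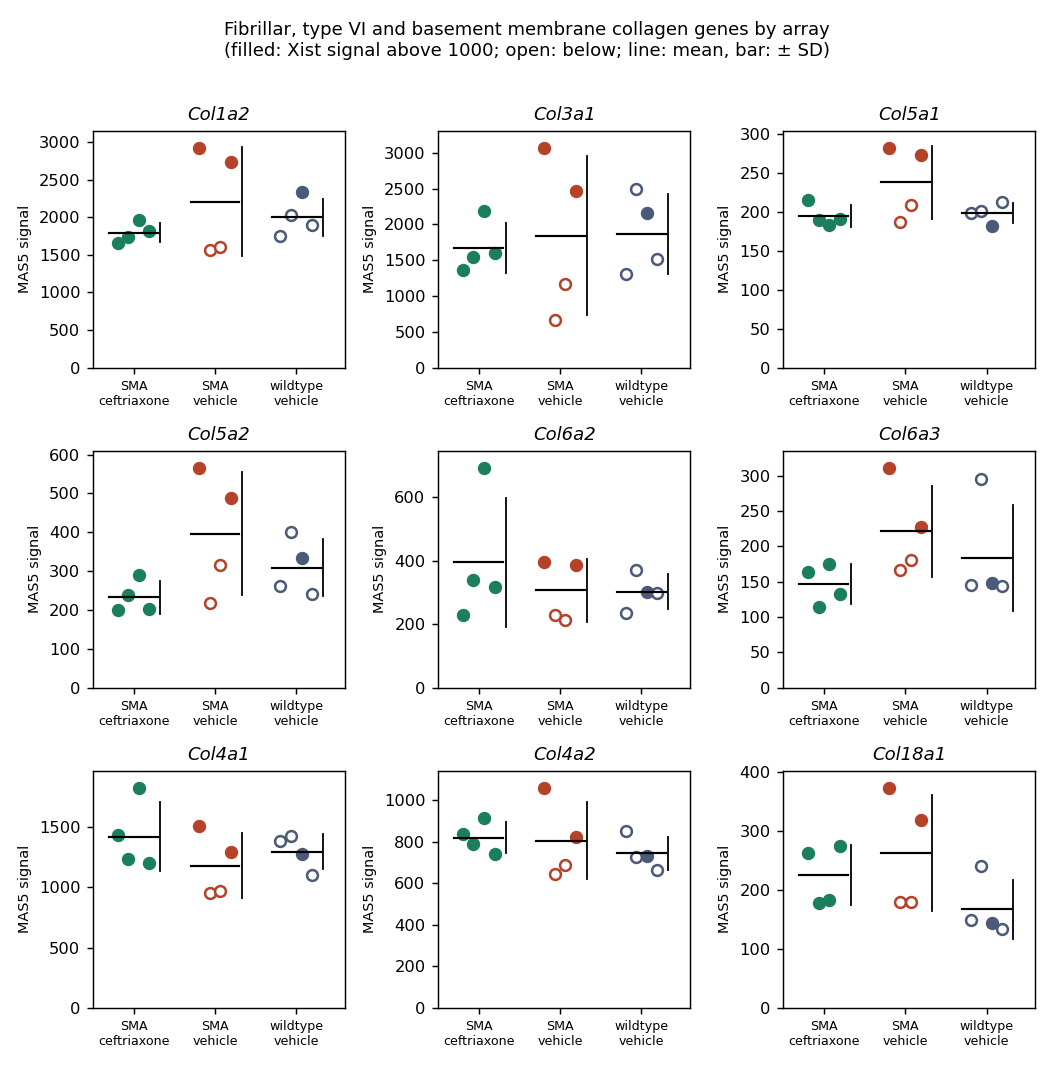
Signal on a linear scale, by array, of fibrillar, type VI and basement membrane collagen genes in SMA ceftriaxone, SMA vehicle and wildtype cords from left to right. Filled points are arrays with Xist above 1000, lines are group means and bars are 1 SD; within SMA vehicle, the filled points of Col1a2 and Col3a1 lie above the open ones.

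Genes of fibroblasts did not share one pattern across these arrays: some divided with Xist and others did not. Decorin (Dcn), a proteoglycan of collagen fibrils, measured 831.7 and 687.8 on the arrays of high Xist signal and 318.8 and 294.1 on those of low Xist signal. Periostin (Postn), a matrix protein of fibroblasts, measured 424 and 370.4 against 224.3 and 224. Slc6a13, a transporter of meningeal fibroblasts, measured 127.2 and 178.6 against 63.9 and 65.8. Aldh1a2, a retinoic acid enzyme of the meninges, ran the other way, with 413.7 and 352.1 against 621.6 and 492.5. The choice of these 4 genes followed a look at their values. Foxc1, Cdh1 and Crabp2, of the meningeal fibroblast list, overlapped between the pairs of arrays. The summed signal of the whole list did not divide. It was 1323.4 and 1204.8 on the SMA vehicle arrays of high Xist signal and 1219 and 1044 on those of low Xist signal. Aldh1a2 made up 621.6 and 492.5 of the last 2 sums, so the sums lean on 1 gene that ran the other way. The 9 genes of the list, of which 3 were tested, summed to 858.6 to 1341.9 in SMA ceftriaxone cords, 1044 to 1323.4 in SMA vehicle cords and 966.7 to 1709.3 in wildtype cords. Of the 3 tested, 1 rose and 2 fell in SMA vehicle against wildtype cords. In SMA ceftriaxone against SMA vehicle cords 1 rose and 1 fell. Of all probe sets 47.2% and 35.9% passed in these comparisons. The part of fibroblasts in the collagen values was not tested. The muscle list did not divide with Xist either, since the SMA vehicle arrays summed to 2884.2 and 6630.9 at high and 3966.6 and 6726 at low Xist signal.

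Restricted to arrays of high Xist signal (4 SMA ceftriaxone against 2 SMA vehicle), 11 collagen genes were lower and 2 higher, where 16.5% of all probe sets were lower and 16.3% higher. These 2 SMA vehicle arrays were the higher pair of their group for 15 of the 21 tested genes. Taking them alone as the reference therefore lowers many of the differences, and the counts depend on that choice. The 11 included 6 of 8 fibrillar genes. Col1a1 differed by -1.18, Col5a2 by -1.13, Col3a1 by -0.73, Col1a2 by -0.65 and Col5a1 by -0.48 on the log2 scale, beside Col11a1 at -0.77. Col14a1 (-1.92), Col26a1 (-1.44), Col6a3 (-0.81), Col6a1 (-0.74) and Col18a1 (-0.61) made up the rest. Col9a1 and Col9a3 were the higher ones, at 0.78 and 0.81. Col3a1 thus had a difference of 0.08 over all arrays and of -0.73 (limma adjusted p = 0.0138) within this class, with only 2 SMA vehicle arrays behind the second value.

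Restricted to arrays of low Xist signal (2 SMA vehicle against 3 wildtype), Col26a1 and Col14a1 were higher, by 1.91 ± 0.16 and 1.21 ± 0.21 on the log2 scale, and 0 genes were lower. Over all probe sets 8.91% were higher and 7.69% lower in this smaller fit. Col9a1 differed by -0.75 (limma adjusted p = 0.0507) and Col11a1 by 0.71 (limma adjusted p = 0.0505), both close to their values over all arrays. SMA ceftriaxone could not be compared with wildtype within either class, since 1 wildtype array had a high and 0 SMA ceftriaxone arrays a low Xist signal.

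Skeletal muscle markers moved with the groups. All 3 tested members of that list rose in SMA vehicle cords (against wildtype) and fell in SMA ceftriaxone cords (against SMA vehicle), beside 24.9% and 17.7% of all probe sets, and no member was near 0 on every array. Acta1, skeletal muscle actin, measured 327.3, 194.7, 154.4 and 170.1 in SMA ceftriaxone cords, 1139.9, 2044.6, 3430.2 and 2697 in SMA vehicle cords, and 721.5, 234.8, 260.6 and 283.6 in wildtype cords. The muscle level of every SMA vehicle array lay above that of every other array. With the mean muscle level as a covariate, 0 of 13575 probe sets passed between SMA ceftriaxone and SMA vehicle, so group and muscle level cannot be told apart there. Between SMA vehicle and wildtype 731 of 13575 probe sets passed with the covariate, against 6401 without it. Muscle level did not overlap between these groups either, so group and muscle level are poorly told apart there as well. Col26a1 passed with the covariate, at 1.91 (limma adjusted p = 0.0105), and the other 6 genes did not. This 1 gene of 21 tested did not stand above the share of all probe sets. With the covariate Col11a1 gave 0.34 (limma adjusted p = 0.546) and Col6a1 gave 1.28 (0.0915). Markers of cartilage and bone summed to 406.9 to 487.2, 418 to 450.2 and 427.2 to 561.2 in SMA ceftriaxone, SMA vehicle and wildtype cords, and Mepe was at most 19.9 on every array. Of the 2 tested members 1 rose (0.66) and 1 fell (-1.41) in SMA vehicle against wildtype cords. In SMA ceftriaxone against SMA vehicle cords 1 rose (1.02) and 1 fell (-0.56). Of all probe sets 47.2% and 35.9% passed in these comparisons.

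Few genes that make and modify collagen chains passed. Of 14 tested genes of the list for synthesis and processing, 4 fell and 0 rose in SMA vehicle against wildtype cords, or 28.6% in either direction against 47.2% of all probe sets (22.3% fell). In SMA ceftriaxone against SMA vehicle cords 2 rose and 1 fell, or 21.4% against 35.9% of all probe sets. These shares did not stand above the background. P4ha1, the catalytic subunit of prolyl 4-hydroxylase, measured 456.4, 283, 388.2 and 300.1 in SMA ceftriaxone cords, 237.1, 199.4, 199.5 and 216.3 in SMA vehicle cords, and 432.1, 395.1, 461.1 and 437.1 in wildtype cords. No SMA vehicle array overlapped with the other groups. Its log2 differences were -0.97 ± 0.14 (limma adjusted p = 8.55e-05) for SMA vehicle from wildtype and 0.68 ± 0.14 (limma adjusted p = 0.00197) for SMA ceftriaxone from SMA vehicle. The lysyl hydroxylases Plod1, Plod2 and Plod3 fell by 0.98, 0.63 and 0.39 on the log2 scale in SMA vehicle cords. Plod1 was higher by 0.66 in SMA ceftriaxone than in SMA vehicle cords, while Plod2 (0.27) and Plod3 (0.31) did not pass. Plod3 lost its call without wildtype array 3 (0.0531) or SMA vehicle array 2 (0.0598). Colgalt1, which adds galactose to hydroxylysine, was lower in SMA ceftriaxone than in SMA vehicle cords by a log2 difference of -0.35 (limma adjusted p = 0.0353), a call lost when SMA ceftriaxone array 2 (0.0595), 3 (0.0797) or 4 (0.11) was left out, and likewise SMA vehicle array 1 (0.0658), 3 (0.101) or 4 (0.103).

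Of 9 tested genes of collagen degradation and its inhibitors, 3 rose and 2 fell in SMA vehicle against wildtype cords, and 3 rose and 1 fell in SMA ceftriaxone against SMA vehicle cords. These are 55.6% and 44.4% of the list, near the 47.2% and 35.9% of all probe sets that passed. Ctsk, the collagen-cleaving cathepsin K, measured 316.1, 309.5, 302.6 and 364.1 in SMA ceftriaxone cords, 200.7, 128.3, 68.2 and 125.5 in SMA vehicle cords, and 365.3, 232.2, 398.9 and 463 in wildtype cords. Its SMA vehicle arrays lay below all others. The log2 differences were -1.41 ± 0.25 and 1.28 ± 0.25 in the 2 comparisons. Mmp2, a gelatinase, shared these directions at -0.69 and 0.91. Timp3, a matrix-bound inhibitor of metalloproteinases, measured 718.2, 752.3, 846.5 and 972.1 in SMA ceftriaxone cords, 1001, 1119.5, 1078.9 and 1279.7 in SMA vehicle cords, and 559.8, 557.4, 565.5 and 506.4 in wildtype cords. The 3 groups did not overlap for Timp3, and it was the only tested gene of this list higher in SMA ceftriaxone than in wildtype cords (0.57, limma adjusted p = 0.012). That call was lost with only the groups compared in the fit (0.051) and with Xist as a covariate (0.54, limma adjusted p = 0.0948). Mmp16, a membrane-bound metalloproteinase, rose by 0.68 in SMA vehicle cords, and Timp4, another inhibitor, was higher by 0.56 in SMA ceftriaxone than in SMA vehicle cords.

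Of 3 tested collagen receptors 2 fell and 0 rose in SMA vehicle against wildtype cords, where 22.3% of all probe sets fell and 47.2% passed in either direction. Ddr1, a receptor tyrosine kinase that binds collagen and in the nervous system marks oligodendrocytes, measured 7493.7, 8888.8, 7916.2 and 8095.6 in SMA ceftriaxone cords, 3617.5, 3535.5, 2970.3 and 3431.1 in SMA vehicle cords, and 7254.7, 5606.9, 9302.1 and 8613.5 in wildtype cords. Every SMA vehicle array lay below every other array. The log2 differences were -1.16 ± 0.13 (limma adjusted p = 1.6e-05) and 1.25 ± 0.13 (limma adjusted p = 5.14e-05). Mog, a protein of mature myelin, moved with it, at 4538.7 to 6418.4 in SMA ceftriaxone cords, 177.3 to 1186.7 in SMA vehicle cords and 5152 to 8646.1 in wildtype cords, and its part in the Ddr1 result was not tested. Itgb1, the beta chain of the collagen-binding integrins, fell by 0.44 in SMA vehicle cords, and Adgrg1, a receptor for type III collagen, gave 0.00.

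Genes of the fibrillar partner list moved, where they passed, in a single direction. Of 11 tested fibrillar partners 7 fell and 0 rose in SMA vehicle against wildtype cords, and 6 rose and 0 fell in SMA ceftriaxone against SMA vehicle cords. The 63.6% that fell in the first stand beside 22.3% of all probe sets, and the 54.5% that rose in the second beside 18.3%. Those that did not pass included 2 above 0 in the first comparison, up to 0.36, and 1 below 0 in the second, at -0.51. Fmod, the proteoglycan fibromodulin, measured 267, 273.2, 274.2 and 295.3 in SMA ceftriaxone cords, 163.6, 110.9, 89.8 and 119.1 in SMA vehicle cords, and 374.1, 288, 549.3 and 390.6 in wildtype cords. Every SMA vehicle array lay below all others, and wildtype array 2 lay among the SMA ceftriaxone arrays. Its log2 differences were -1.60 ± 0.18 (limma adjusted p = 1.82e-05) and 1.13 ± 0.18 (limma adjusted p = 0.000551). Sparc, a collagen-binding glycoprotein, gave -0.66 and 0.77, and Ogn, the proteoglycan osteoglycin, gave -1.70 and 1.43. The second difference of Ogn passed at an adjusted p of 0.0276 and was lost without any 1 of SMA vehicle arrays 2 (0.0626), 3 (0.0806) and 4 (0.0515) and SMA ceftriaxone arrays 2 (0.0887), 3 (0.0645) and 4 (0.0846). Fn1, fibronectin, gave -0.48 and 0.69, with the first lost without SMA vehicle array 3 (0.0553) or 4 (0.0541). Both were lost when all Fn1 probe sets were averaged, at -0.16 (limma adjusted p = 0.408) and 0.27 (limma adjusted p = 0.189). Elastin (Eln) gave -0.39 and 0.46, with signs turned to 0.55 and -0.33 when all its probe sets were averaged. Its first difference was also lost, at adjusted p of 0.0551 to 0.133, without any 1 of wildtype arrays 2 and 3, SMA vehicle arrays 2, 3 and 4 and SMA ceftriaxone array 2. Its second was lost, at 0.0562 to 0.0847, without any 1 of SMA vehicle arrays 3 and 4 and SMA ceftriaxone arrays 2 and 4. Thbs2 gave -0.50 for SMA vehicle from wildtype. That call was lost after quantile (0.088) or median (0.0729) scaling, with no filter (0.0722) and with the replicate block (0.0659). It was also lost, at 0.0542 to 0.134, without any 1 of wildtype arrays 1, 3 and 4, SMA vehicle arrays 2, 3 and 4 and SMA ceftriaxone arrays 2, 3 and 4.

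Among 9 tested basement membrane partners 1 rose and 2 fell in SMA vehicle against wildtype cords, and 0 rose and 1 fell in SMA ceftriaxone against SMA vehicle cords. These 33.3% and 11.1% lay below the 47.2% and 35.9% of all probe sets that passed. Agrn, the proteoglycan agrin of neuromuscular and vascular basement membrane, measured 1989.8, 1361.2, 1726 and 1315.9 in SMA ceftriaxone cords, 2662.7, 2336.4, 2824 and 3083.4 in SMA vehicle cords, and 1547.5, 1056.6, 1454.2 and 1327.8 in wildtype cords. Its SMA vehicle arrays stood above all others, at log2 differences of 1.02 ± 0.15 (limma adjusted p = 0.000103) and -0.78 ± 0.15 (limma adjusted p = 0.00136). Lama2, the alpha 2 chain of laminin, fell by 1.01 in SMA vehicle cords, a call lost without SMA vehicle array 3 (0.0507), and Lamc1, the gamma 1 chain, gave -0.50. The Lamc1 call was lost without any 1 of wildtype arrays 1 (0.068) and 3 (0.0845) and SMA vehicle arrays 2 (0.095), 3 (0.0967) and 4 (0.0525), and when all its probe sets were averaged (-0.32, limma adjusted p = 0.38).

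**Figure D4:**
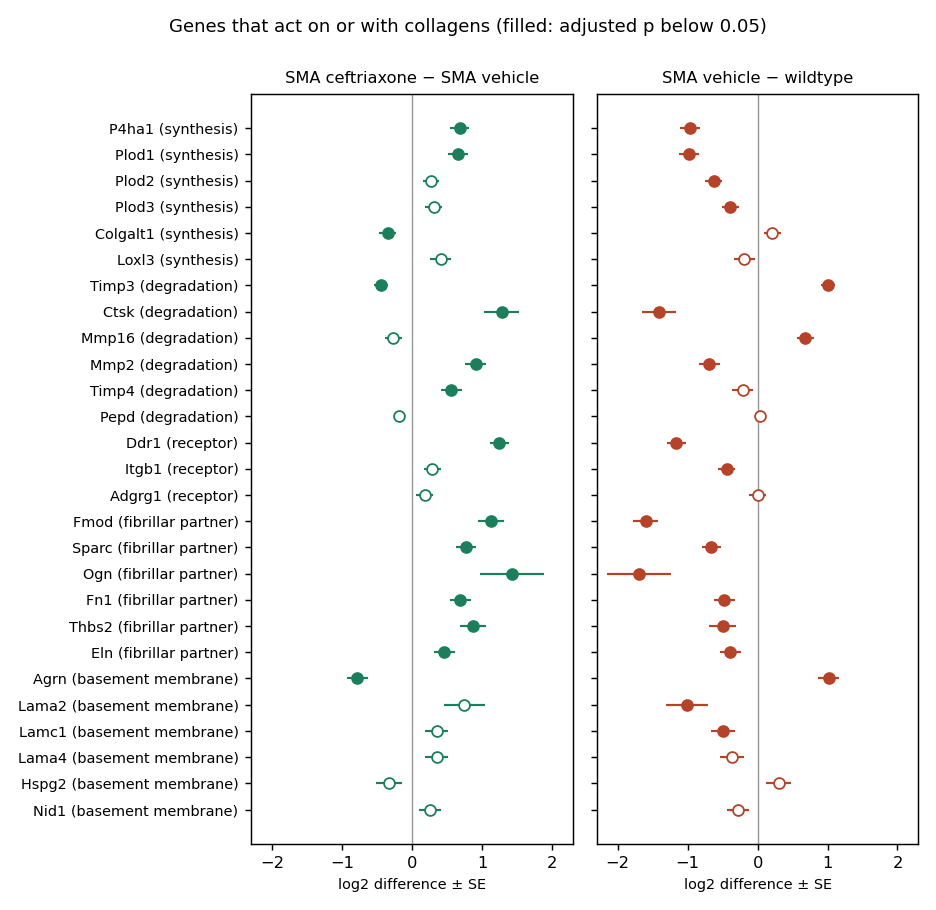
Differences in log2(signal + 16) of the named partner genes of collagen, grouped as synthesis, degradation, receptors, fibrillar partners and basement membrane partners, with bars of 1 standard error. Filled points passed limma's test; fibrillar partners with filled points lie below 0 for SMA vehicle minus wildtype and above 0 for SMA ceftriaxone minus SMA vehicle.

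Among markers of the cells that lay down vascular collagen, 5 of 8 tested endothelial genes fell and 0 rose in SMA vehicle against wildtype cords, and 5 rose and 0 fell in SMA ceftriaxone against SMA vehicle cords. Each count is 62.5% of the list, beside 22.3% of all probe sets lower in the first comparison and 18.3% higher in the second. The summed endothelial signal was 4351.4 to 5560.2 in SMA ceftriaxone cords, 3083.9 to 4299.6 in SMA vehicle cords and 4352.8 to 6024.2 in wildtype cords. Pericyte and smooth muscle markers summed to 3466.5 to 4856.4 in SMA ceftriaxone cords, 2281.1 to 3137.4 in SMA vehicle cords and 4060.6 to 5264.7 in wildtype cords, and Cnn1 was at most 5.3 on every array. Of 6 tested genes of that list 2 were lower in SMA vehicle than in wildtype cords and 2 higher in SMA ceftriaxone than in SMA vehicle cords, or 33.3% in either direction in each, against 47.2% and 35.9% of all probe sets. The 4 tested basement membrane collagens, by their brightest probe sets, had no call in either comparison beside these sums. The second Col4a1 probe set was lower in SMA vehicle than in wildtype cords (-0.52, limma adjusted p = 0.0427). The part of vascular cells in the basement membrane collagen values was not tested.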

How the data were processed

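RNA from 12 spinal cords was hybridised to 1 Affymetrix array each, 4 per group, and the groups were taken from the labels. The deposited values are linear signal intensities, 1 for each probe set, made with MAS5 per the submitters' processing notes, with no version given in the sources used here. As tested on the deposited values, the trimmed mean (2% left out at each end) was 695.7 to 696.9 on every array, so the authors had scaled the arrays. Scaling of that kind reports each gene relative to the rest of the array, and detection calls were not used here. Of 22690 probe sets, 20393 have 1 symbol in the platform annotation, 691 have several and 1606 have none, and 20364 symbols were matched to RefSeq genes. Correlations of wildtype array 2 with its group were 0.924 to 0.93, and those among the other wildtype arrays 0.986 to 0.989.

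The offset 16 was added before log2, which understates the change of dim genes. After removal of 64 control probe sets, 13575 of 22626 with a mean log2 value above the 40th percentile were tested (lowest mean 7.14, a geometric mean signal of 125). A mean per group was fitted to the 12 arrays together by lmFit of limma 3.58.1 (R 4.3.3), followed by eBayes with its trend option, with 9 degrees of freedom left for the spread. All adjusted p-values, those in brackets after an array number included, are limma's with Benjamini-Hochberg adjustment over the probe sets tested. The 4 arrays per group limit the precision, and the median standard error of a log2 difference of SMA vehicle from wildtype was 0.12. Of the 36 collagen genes, 17 have 1 probe set and 19 have several.

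The collagen genes, the partner and marker lists and the rule for naming genes were chosen with earlier results of these data known. All collagen genes are named, with values of each array for those passing in any comparison, for Col1a2, Col3a1, Col4a1 and Col4a2, and for dim genes chosen after their values were seen. Of each partner list at most 4 members of smallest p for SMA vehicle against wildtype and at most 2 more of smallest p for SMA ceftriaxone against SMA vehicle were named. Sequences were copied from a RefSeq table of start regions.

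The settings varied one at a time were the offset (1 or 64), the scaling (quantile or median), the filter (none or the 60th percentile), the eBayes trend, weights for array quality, the arrays fitted (only both groups compared, or only those of Xist signal above or below 1000), a block for the replicate number, covariates (Xist, 3 prime to 5 prime Gapdh ratio, mean muscle marker level), averaging the probe sets of a gene, and leaving out each array. Replicate numbers gave no sign of pairing the arrays. Simulated data of 13575 probe sets took each probe set's overall mean and pooled spread, with normal noise and no group differences but those added. With changes added to SMA vehicle against wildtype, the test recovered 39 of 67 of log2 size 0.5. It recovered 62 of 67 of size 1 and 65 of 66 of size 2, and made 4 false calls. With changes added to SMA ceftriaxone against SMA vehicle, it recovered 30, 55 and 65 and made 6 false calls. Against wildtype, changes added to SMA ceftriaxone were recovered in 35, 61 and 65 cases, with 8 false calls. Far fewer probe sets were changed there than passed in the first 2 comparisons of the data, so these rates need not hold for the data.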

Additional observations from a re-analysis of the deposited data

Results flagged for a closer look

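In 108 groups of 4 arrays (36 collagen genes in 3 groups), 6 held an array whose distance from its nearest neighbour took up more of the group's range than Dixon's critical value allows. Chance gives about 1 such group in 20. Col6a3 measured 295.1 on wildtype array 2, the array with T cell genes, against 143.6 to 148.6 on the other wildtype arrays. Without that array Col6a3 passed for SMA vehicle against wildtype, at a log2 difference of 0.51 (limma adjusted p = 0.0346). Col26a1 measured 134.1 on wildtype array 3, the wildtype array of high Xist signal, against 121.1 to 122.6 on the others, a gap that is small beside the SMA vehicle signals of 471 to 533. Col19a1 measured 124.6 on SMA ceftriaxone array 1 against 166.7 to 173.6 on the others of that group, and Col9a2 measured 89.6 on the same array against 114.1 to 114.2. Col4a3 measured 3 on SMA vehicle array 4 against 21.9 to 25.2, and Col4a4 measured 23.2 on wildtype array 4 against 1.2 to 2.4. Col9a2, Col4a3 and Col4a4 lie below the intensity filter.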

How the results depend on the processing

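Of 382 recomputed values of collagen genes that passed, 334 passed in the same direction, over 16 alternative settings and 12 fits that each left out 1 array. Over all tested collagen genes, 1533 of 1611 values kept their call, 47 lost it, 29 gained one and 2 changed sign. For SMA vehicle against wildtype, the 4 genes higher and 3 lower became 7 and 6 with no filter, 0 and 1 with the filter at the 60th percentile (fewer genes tested), 2 and 0 on arrays of low Xist signal (fewer arrays), and 1 and 0 with the muscle covariate. Over all probe sets these settings left, in that order, 7082 of 22626, 4490 of 9050, 2253 of 13575 and 731 of 13575 past the threshold. Leaving out 1 array gave 2 to 6 higher and 3 to 3 lower. For SMA ceftriaxone against SMA vehicle, the 4 genes higher and 4 lower became 1 and 1 with the filter at the 60th percentile, 2 and 7 with the Xist covariate, 2 and 11 on arrays of high Xist signal, and 0 and 0 with the muscle covariate, which left 0 of all probe sets. The 60th percentile filter, the Xist covariate and the arrays of high Xist signal left 3528 of 9050, 3572 of 13575 and 4457 of 13575 probe sets. The number higher was 2 after quantile normalization and after median centring. Leaving out 1 array gave 2 to 4 higher and 3 to 6 lower. For SMA ceftriaxone against wildtype the count was 1 higher with array quality weights, where 1826 of 13575 probe sets passed. It was 0 to 0 in each direction when 1 array was left out. Signs turned for Col3a1 (-0.73 on arrays of high Xist signal) and, with the muscle covariate, for Col5a3 (-0.42), Colgalt1 (0.24) and Agrn (0.04) in SMA ceftriaxone against SMA vehicle, Ogn (0.47 for SMA vehicle against wildtype and -1.67 for SMA ceftriaxone against SMA vehicle) and Eln (0.03 and -0.15). Averaging all probe sets turned Eln to 0.55 and -0.33. The causes were not tested. Deviations of same-numbered arrays of different groups correlated above 0.1 in 2 of 12 pairs (correlations -0.143 to 0.133). These values gave no sign of pairing by number, but with 4 arrays per group they cannot exclude it. With the replicate block, Col5a3 for SMA ceftriaxone against SMA vehicle (adjusted p = 0.0543) was the only collagen gene to change its call. Low signal limits the 15 collagen genes below the filter.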

Other observations

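Schwann cells, which make the collagens of nerve roots, had 3 measured markers on the array, of which 1 was tested. Ncmap, a protein of noncompact peripheral myelin, measured 134.8, 629.8, 566.6 and 763.6 in SMA ceftriaxone cords, 195.7, 75.4, 83.9 and 132.5 in SMA vehicle cords, and 216, 420.8, 475.4 and 349.9 in wildtype cords. SMA ceftriaxone array 1 stood with the SMA vehicle arrays and the other 3 above all wildtype arrays. Ncmap fell in SMA vehicle against wildtype cords, at a log2 difference of -1.5 (limma adjusted p = 0.0149), and was higher in SMA ceftriaxone than in SMA vehicle cords by 1.82 (limma adjusted p = 0.00709). The 3 Schwann markers summed to 227.9 to 956.6 in SMA ceftriaxone cords, 134 to 366.6 in SMA vehicle cords and 351.1 to 789.5 in wildtype cords. Ogn, a partner of fibrillar collagen, was likewise lowest of its group on SMA ceftriaxone array 1, at 83.8 against 325.3 to 460 on the other 3, and Dcn measured 426.2 there against 894.7 to 1017. These genes were picked with their values in view.

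The 2 measured adipocyte genes, Fabp4 and Adipoq, summed to 51.9 to 427.3 in SMA ceftriaxone cords, 329.3 to 1430 in SMA vehicle cords and 180.2 to 767.4 in wildtype cords. Fabp4, a fatty acid carrier of fat and of capillary endothelium, was lower in SMA ceftriaxone than in SMA vehicle cords by a log2 difference of -1.68 (limma adjusted p = 0.0435), and its difference of 0.66 between SMA vehicle and wildtype did not pass (limma adjusted p = 0.389). On SMA vehicle array 2 it measured 1374.9, against 302.2 to 470.5 on the others of that group.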
